A study of Mus musculus with 8 samples.

Results

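Chromatin accessibility was compared between PB3-ERI-R and PB3-VIN-R, labelled as drug-resistant derivatives of the mouse breast cancer line PB3, which the labels give as Er-/Pr-/Her2-. PB3-ERI-R was made with eribulin (the labels' titles spell it Erubilin) and PB3-VIN-R with vinorelbine, each at 300, 500 and 800 nM. All libraries of these lines entered, 2 for PB3-ERI-R and 2 for PB3-VIN-R, which is 4 of the 8 in the series. The other 4 come from the untreated PB3-Parental and from PB3-PAC-R, made with paclitaxel at the same 3 concentrations, and are given beside the results. The labels speak of resistant clones and give 1 line for each drug, so an effect of a drug and a trait of the cells that were selected cannot be told apart. The labels do not say whether the libraries of a line came from separate cultures. A p-value therefore reflects only how far these libraries spread, and part or all of that spread may be technical.

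ATAC-seq uses a transposase that cuts and tags open DNA, so a high count at a region marks accessible chromatin, such as an active promoter or enhancer. Eribulin, a synthetic analogue of the sponge product halichondrin B, and vinorelbine, a semisynthetic vinca alkaloid, both block the growth of microtubules, whereas paclitaxel stabilizes them. Epithelial cells are joined by cadherins, claudins and desmosomes under transcription factors such as GRHL2, OVOL1 and the ETS factors EHF and ELF5. In epithelial-mesenchymal transition (EMT), ZEB, SNAI and TWIST factors shut these genes off and vimentin and matrix genes come on. The series, by its title, is about mesenchymal-epithelial transition, the reverse shift, and these lines set 2 microtubule destabilizers side by side.

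Values are given as CPM (counts scaled to library size) in replicates 1 and 2 of a line, and differences as log2 fold changes ± SE, positive where PB3-ERI-R was higher. A region is 1 of 57417 intervals at which some line had a peak. A locus is the summed count of all regions whose nearest protein-coding gene, within 50 kb, is the gene named. A locus value is thus a measure of open chromatin around the gene, and expression was not measured here. Levels are averages over all cells of a line, so fewer open cells and less signal per cell cannot be told apart. Region and locus CPM use different totals and are not compared with each other. A feature was called at an edgeR adjusted p under 0.05. Libraries held 13419873 and 10521964 counts for PB3-ERI-R and 24052237 and 23206697 for PB3-VIN-R.

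PB3-ERI-R was unlike the other 3 lines of the series, and it had signal at places where the parental libraries had almost none. Across regions, its libraries correlated at 0.977 with each other and at 0.133 to 0.199 with those of PB3-VIN-R, while the PB3-VIN-R libraries correlated at 0.948 to 0.979 with PB3-Parental. In the 2249 kb of chromosome 4 from 89128152 to 91376744 (mm10), which holds Cdkn2a and Cdkn2b, 21 consecutive regions had 7070 and 5671 counts in PB3-ERI-R. The same regions had 1 count in each PB3-VIN-R library, 274 in PB3-Parental and 213 in PB3-PAC-R. Over 3 regions of the Y chromosome, PB3-ERI-R had 93.1 and 112.0 CPM against 5.16 and 5.26 in PB3-VIN-R and 4.16 to 5.56 in PB3-Parental. Sequence at Cdkn2a and Cdkn2b was thus read in the libraries labelled PB3-ERI-R and had no counts in those of PB3-Parental. The descent of PB3-ERI-R from PB3-Parental is taken from the labels and was not tested. All values given for PB3-ERI-R are those of the libraries so labelled. The origin of this signal and its part in the differences below were not tested.

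Promoters of some epithelial junction genes were among the promoter regions with the largest differences, and 3 of them are shown with 3 that carry results below. Each line gives the 250 bases before the annotated start, 5′ to 3′ on the strand of the gene, from RefSeq GRCm38.p6. Capitals mark matches, on either strand, to the E-box CAGGTG bound by ZEB and SNAI repressors, GRHL (AACCNGTT), ETS (CCGGAA), SOX (ACAATG) and KLF and SP (GGGCGG) motifs. Among all 21263 promoter windows, which reach 50 bases past the start, these motifs lay in 19.7%, 1.95%, 18.7%, 11% and 46.2%. The 6 genes were chosen for print after their values were seen.
Rab25: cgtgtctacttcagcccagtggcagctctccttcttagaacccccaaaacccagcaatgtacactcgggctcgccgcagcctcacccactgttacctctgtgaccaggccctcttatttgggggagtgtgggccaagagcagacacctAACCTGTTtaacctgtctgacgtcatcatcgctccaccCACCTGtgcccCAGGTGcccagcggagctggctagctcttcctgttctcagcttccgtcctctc
Cldn7: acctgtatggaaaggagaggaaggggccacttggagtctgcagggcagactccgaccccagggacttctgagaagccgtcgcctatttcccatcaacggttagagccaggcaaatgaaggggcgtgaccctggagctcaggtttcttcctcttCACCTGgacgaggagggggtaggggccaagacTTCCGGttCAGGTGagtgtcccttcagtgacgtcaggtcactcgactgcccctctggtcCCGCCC
Ap1m2: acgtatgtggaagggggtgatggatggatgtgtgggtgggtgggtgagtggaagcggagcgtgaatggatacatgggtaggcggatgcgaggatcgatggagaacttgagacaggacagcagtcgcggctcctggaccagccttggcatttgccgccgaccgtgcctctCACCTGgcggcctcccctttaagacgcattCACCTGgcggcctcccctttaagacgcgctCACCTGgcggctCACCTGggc
Vim: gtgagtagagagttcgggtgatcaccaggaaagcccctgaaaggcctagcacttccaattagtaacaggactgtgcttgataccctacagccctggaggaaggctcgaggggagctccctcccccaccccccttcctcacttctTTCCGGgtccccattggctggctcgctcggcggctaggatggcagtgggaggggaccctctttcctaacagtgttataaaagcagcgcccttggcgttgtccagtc
Tubb3: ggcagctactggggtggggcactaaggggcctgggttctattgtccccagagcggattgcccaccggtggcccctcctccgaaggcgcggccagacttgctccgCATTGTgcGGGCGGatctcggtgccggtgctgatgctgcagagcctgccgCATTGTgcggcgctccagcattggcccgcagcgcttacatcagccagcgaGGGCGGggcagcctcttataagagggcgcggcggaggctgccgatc
Abcb1b: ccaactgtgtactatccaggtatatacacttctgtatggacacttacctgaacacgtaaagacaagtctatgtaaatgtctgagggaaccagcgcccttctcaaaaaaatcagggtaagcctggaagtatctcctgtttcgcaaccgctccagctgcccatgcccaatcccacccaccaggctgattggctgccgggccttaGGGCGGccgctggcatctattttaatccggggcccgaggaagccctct
Rab25, a GTPase of epithelial membrane recycling, has a minus-strand promoter at chr3:88548280-88548529. Its promoter region had 27.9 and 27.8 CPM in PB3-ERI-R and 0.191 and 0.2497 in PB3-VIN-R (log2 6.94 ± 0.39, edgeR adjusted p = 2.05e-09). The claudin gene Cldn7 (chr11:69965171-69965420, plus strand) had 19.1 and 21.4 CPM against 0.420 and 0.499 (log2 5.44 ± 0.34, adjusted p = 4.41e-09). Ap1m2, an adaptor subunit for sorting to the basolateral membrane (chr9:21312334-21312583, minus strand), had 21.8 and 21.3 CPM against 0.458 and 0.208 (log2 5.97 ± 0.37, adjusted p = 3.97e-09). All 3 were near 0 in PB3-VIN-R, and the printed letters hold 2, 2 and 4 E-box matches. The promoter of Vim (chr2:13574061-13574310, plus strand), which encodes the mesenchymal intermediate filament vimentin, holds no E-box match in this stretch, and nor do those of Tubb3 (chr8:123411303-123411552, plus strand) and Abcb1b (chr5:8797897-8798146, plus strand). A match is a stretch of letters, not a bound site.

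The list of 38 epithelial junction and adhesion genes was chosen with earlier results of these data known. Of its genes, 18 had a region over a promoter window (250 bases before to 50 after a start). At 14 of these the promoter was called higher in PB3-ERI-R and at 0 in PB3-VIN-R, against 4060 and 623 of all 9104 genes with such a region. Without a scaling factor these counts were 13 and 0 for the list and 1773 and 1672 for all genes. An E-box match lay in the windows of 13 of the 18 genes (72.2%), and of 1706 of the 9104 genes (18.7%). Among the 14 it lay in 11, namely Ap1m2, Cldn3, Cldn4, Cldn7, Dsp, F11r, Krt7, Marveld2, Ocln, Rab25 and Spint2. Of promoter windows in regions higher in PB3-ERI-R 21.2% held this E-box, against 15.6% of those higher in PB3-VIN-R and 13.9% of those not called. The AP-1 motif TGANTCA ran the other way, at 4.02%, 15.3% and 4.76%, with 6.99% among all windows. With groups called without a scaling factor, the shares were 27.1%, 13.4% and 15.3% for the E-box and 5.19%, 9.47% and 3.87% for AP-1. Mean GC content of these groups was 61.9%, 59.9% and 62.8%. Motifs were searched on both strands, and none of those named contains another.

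Most of the accessible genome differed between the lines. Of 57415 tested regions, 41951 were called (73.1%), 20399 higher in PB3-ERI-R (35.5%) and 21552 higher in PB3-VIN-R (37.5%). The median absolute log2 fold change was 1.86 among the former and 2.63 among the latter. At or beyond 5 on the log2 scale lay 3876 regions higher in PB3-ERI-R and 1371 higher in PB3-VIN-R. The split between directions depends on the scaling: without a scaling factor it was 15169 to 25336, as the median of all regions moved from 0.07 to -0.29. Of 14945 loci, 8818 were called (59.0%), 4239 higher in PB3-ERI-R (28.4%) and 4579 higher in PB3-VIN-R (30.6%). Libraries of the lines did not overlap at 85.5% of regions and 77.8% of loci.

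Large differences lay mostly away from promoters. Of 8823 regions over a promoter window, 1213 were called with a log2 fold change of at least 1 toward PB3-ERI-R and 363 toward PB3-VIN-R. Of the 48592 other regions, 12923 and 18587 were. At any size, promoter regions were called more often toward PB3-ERI-R, 43.0% against 7.04%, but these shares follow the scaling: without a scaling factor they were 19.2% and 18.5%, with 874 and 503 at 1 or beyond. Without PB3-VIN-R replicate 1 they were 28.6% and 9.02%. These alternatives for promoter shares were chosen after seeing the data. Regions higher in PB3-VIN-R lay over a promoter window in 2.88% and beyond 50 kb from any protein-coding gene in 21.6%, against 18.6% and 15.4% of those higher in PB3-ERI-R.

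**Figure D1:**
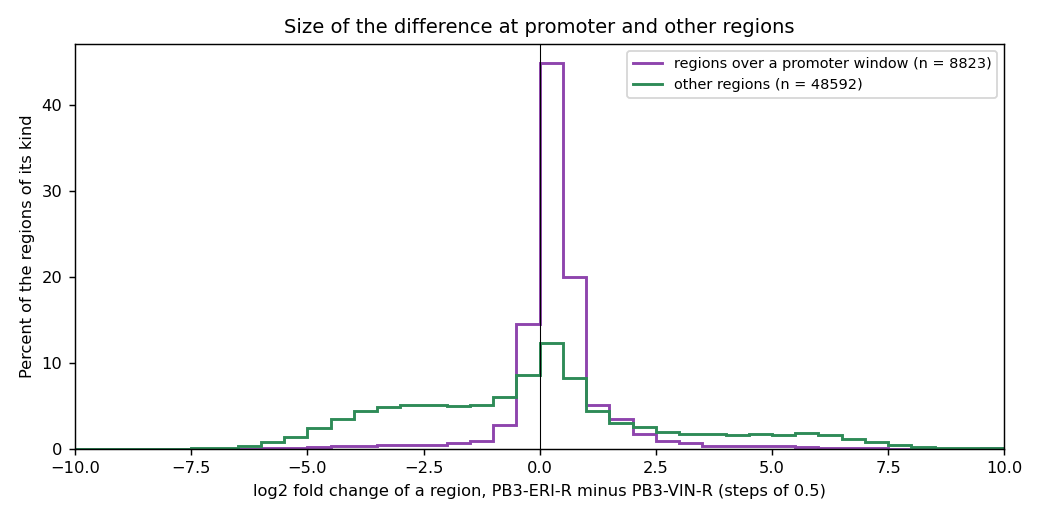
The x axis is the log2 fold change of a region, PB3-ERI-R minus PB3-VIN-R, and the y axis the percent of 8823 promoter regions (purple) and 48592 other regions (green) in steps of 0.5. Promoter regions peak just above 0 with a median of 0.33, which was -0.02 without a scaling factor, while other regions spread widely to both sides with a median of -0.15.

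Many loci held regions of both kinds. Among 9458 loci with at least 2 regions, 3920 (41.4%) had regions called in each direction. Among 3103 loci with at least 5 regions, every region was called higher in PB3-ERI-R at 101 and higher in PB3-VIN-R at 94. Fry, a furry homologue, and Mid1, a microtubule-associated ubiquitin ligase, had 15 of 15 regions higher in PB3-ERI-R. The Fry locus had 667 and 565 CPM in PB3-ERI-R against 27.1 and 25.1 in PB3-VIN-R. Samd4, an RNA-binding translational repressor, had 15 of 15 regions higher in PB3-VIN-R, with 112 and 110.3 CPM against 286 and 288. Pcdh7, a protocadherin, had 14 of 14, and its locus had 7.51 and 11.5 CPM against 217 and 196. These 4 were picked after their values were seen, as the loci with the most regions of 1 direction. The 5 Mb around each leaned the same way. Its median over regions was log2 3.44 at Fry, 1.54 at Mid1, -0.96 at Samd4 and -3.95 at Pcdh7.

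The largest single-region differences toward PB3-ERI-R included 4 in the chromosome 4 block. The promoter region of Cdkn2b, an inhibitor of CDK4 and CDK6, had 611 and 460 counts in PB3-ERI-R and none in PB3-VIN-R. It was at least 901.7-fold higher, against a floor of 3 counts over the line, which covers counting error only. Regions at Mtap, Cdkn2a and Elavl2 were at least 781.4-fold, 537.2-fold and 292.1-fold higher on the same floor. Of these, the Elavl2 region had 24 counts in PB3-Parental, and the other 3 had none there. Outside the block the rule named regions at Gsap, Krt39, Adamts18 and Il1rapl1, with 397 to 1633 counts in PB3-ERI-R and 1 to 5 in PB3-VIN-R. The region 8.6 kb from Adamts18, a secreted metalloprotease, had 85.8 and 78.5 CPM against 0.153 and 0.0416 (log2 9.59 ± 0.36, edgeR adjusted p = 3.71e-10).

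Toward PB3-VIN-R, 7 of the 8 named regions had no counts in PB3-ERI-R. A region inside Nkain3 had 335 and 336 counts in PB3-VIN-R and was at least 88.31-fold higher. Those at Galnt14, Aldoart1, Erc2, Pkib, Rims2 and Prl3d3 were at least 65.59-fold, 51.26-fold, 46.73-fold, 46.58-fold, 28.07-fold and 21.71-fold higher. The eighth, inside the synaptic scaffold gene Dlgap1, had 32.9 and 31.5 CPM in PB3-VIN-R against 0.0 and 0.221 (log2 -8.21 ± 0.41, adjusted p = 1.10e-09). All 8 were open in PB3-Parental, at 3.21 to 37.6 CPM. None was called between PB3-VIN-R and PB3-Parental in edgeR, where adjusted p ran from 0.107 to 1.0. In the whole table, 25 regions had no counts in PB3-VIN-R and 25 had none in PB3-ERI-R. Most of the former lay in the chromosome 4 block, where 21 regions held 2 PB3-VIN-R counts in all. Those with at least 100 counts in the other line were joined to 6 genes and 15 genes.

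Among loci with at least 3 regions and a fair level, Adamts18 had the largest difference toward PB3-ERI-R, with 243 and 217 CPM in PB3-ERI-R against 0.473 and 0.506 in PB3-VIN-R (log2 8.85 ± 0.23, adjusted p = 9.41e-09). Prlr, the prolactin receptor, had 144 and 137 CPM against 1.61 and 1.75 (log2 6.38 ± 0.18). Sox11, a SOX transcription factor, had 83.3 and 78.8 CPM against 0.473 and 0.644 (log2 7.16 ± 0.29). At all 3 the locus was near closed in PB3-VIN-R and open in both PB3-ERI-R libraries. The other loci of the 10 with the largest differences were Kcnk1, Syndig1, the proprotein convertases Pcsk5 and Pcsk6, 1110032F04Rik, the gluconeogenic enzyme Fbp1 and Banf2, with log2 fold changes of 6.14 to 6.54.

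The 10 largest toward PB3-VIN-R were Gm47655, Ntm, 4930474N05Rik, Cdh6, Lingo2, Naa11, Tafa1, Grm7, Havcr1 and Marchf1, with log2 fold changes of -5.81 to -4.99. Ntm, an adhesion molecule of neurons, had 1.70 and 3.79 CPM in PB3-ERI-R against 154 and 139 in PB3-VIN-R (adjusted p = 2.84e-08). Cdh6, a type II cadherin, had 1.16 and 2.17 CPM against 77.6 and 77.8 (log2 -5.57 ± 0.27). In PB3-Parental the Cdh6 locus had 47.5 and 36.7 CPM, and the PB3-VIN-R difference from it missed the threshold (log2 0.88 ± 0.18, adjusted p = 0.0669). The other 9 loci differed from PB3-Parental by -0.25 to 0.40, none called. At 4930474N05Rik, Lingo2, Naa11 and Havcr1 the surrounding 5 Mb was also lower in PB3-ERI-R, with a window median of -3.11, -4.02, -2.64 and -2.32.

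Epithelial genes were more open in PB3-ERI-R. Of 37 measured junction and adhesion loci, 27 were called higher in PB3-ERI-R and 2 in PB3-VIN-R, with a median of 1.12, against 28.4%, 30.6% and -0.01 over all loci. Epcam, an epithelial adhesion molecule, had 175 and 167 CPM in PB3-ERI-R and 36.1 and 37.2 in PB3-VIN-R (log2 2.22 ± 0.14, adjusted p = 3.26e-07). Every 1 of its 5 regions was higher in PB3-ERI-R. Cdh1, which encodes E-cadherin, had 236 and 202 CPM against 113 and 88.5 (log2 1.12 ± 0.16, adjusted p = 0.000126). Its 10 regions did not move together: 6 were higher in PB3-ERI-R, 3 in PB3-VIN-R and 1 was not called. The Cdh1 region at the gene end had 58.8 and 53.6 CPM against 2.17 and 2.16 (log2 4.69 ± 0.24), and a region inside the gene 7.6 kb from an end had 23.4 and 18.1 CPM against 0.267 and 0.0832 (log2 6.80 ± 0.43).

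Claudin 8 (Cldn8), a tight junction claudin, showed the largest difference of the list, with 68.1 and 56.1 CPM against 0.142 and 0.276 (log2 8.15 ± 0.35). Dsp, the desmosomal linker desmoplakin, had 205 and 211 CPM against 26.1 and 24.9 (log2 3.03 ± 0.14). St14, the epithelial protease matriptase, had 175 and 139 CPM against 19.2 and 16.5 (log2 3.14 ± 0.14). Llgl2, a cell polarity gene, had 206 and 179.7 CPM against 39.5 and 35.9 (log2 2.36 ± 0.12) in a window with a median of 1.38. The libraries did not overlap at any of these 4 loci, which were named for their small adjusted p, and did not at 77.8% of all loci. The keratin genes Krt8 and Krt18, often used as epithelial markers, were not called as loci, at log2 0.14 ± 0.28 and -0.30 ± 0.23. Cldn1 and Pkp2 were the 2 junction loci higher in PB3-VIN-R.

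Among epithelial transcription and splicing factors, 14 of 21 measured loci were higher in PB3-ERI-R and 5 in PB3-VIN-R, with a median of 1.61. Of all loci 28.4% and 30.6% were called in these directions. Ehf had 352 and 304 CPM against 7.95 and 6.44 (log2 5.51 ± 0.15, adjusted p = 9.41e-09), and all 8 of its regions were higher in PB3-ERI-R. Elf5, which drives alveolar differentiation in the mammary gland, had 205 and 154 CPM against 4.64 and 3.49 (log2 5.46 ± 0.20). The Elf5 region with the highest count, 21.1 kb from the gene, had 174 and 123 CPM against 0.649 and 0.707 (log2 7.77 ± 0.25). Esrp1, a splicing factor of epithelial exons, had 167 and 171 CPM against 5.77 and 7.68 (log2 4.65 ± 0.18), and Tfap2c, an AP-2 factor, had 355 and 278 CPM against 16.7 and 21.7 (log2 4.04 ± 0.18). The ZEB1 antagonists Grhl2, Ovol1 and Ovol2 followed at log2 3.53 ± 0.18, 2.99 ± 0.22 and 3.39 ± 0.26. Going the other way were Spdef, Klf4, Gata3, Rbm47 and Runx1, from -2.41 to -0.44, although the Rbm47 promoter was higher in PB3-ERI-R (log2 1.69 ± 0.17). Within 1 kb of gene ends the counts of this list were 11 and 1 of 15. At the promoters of its 10 genes with such a region they were 5 and 0, and 5 and 4 without a scaling factor.

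**Figure D2:**
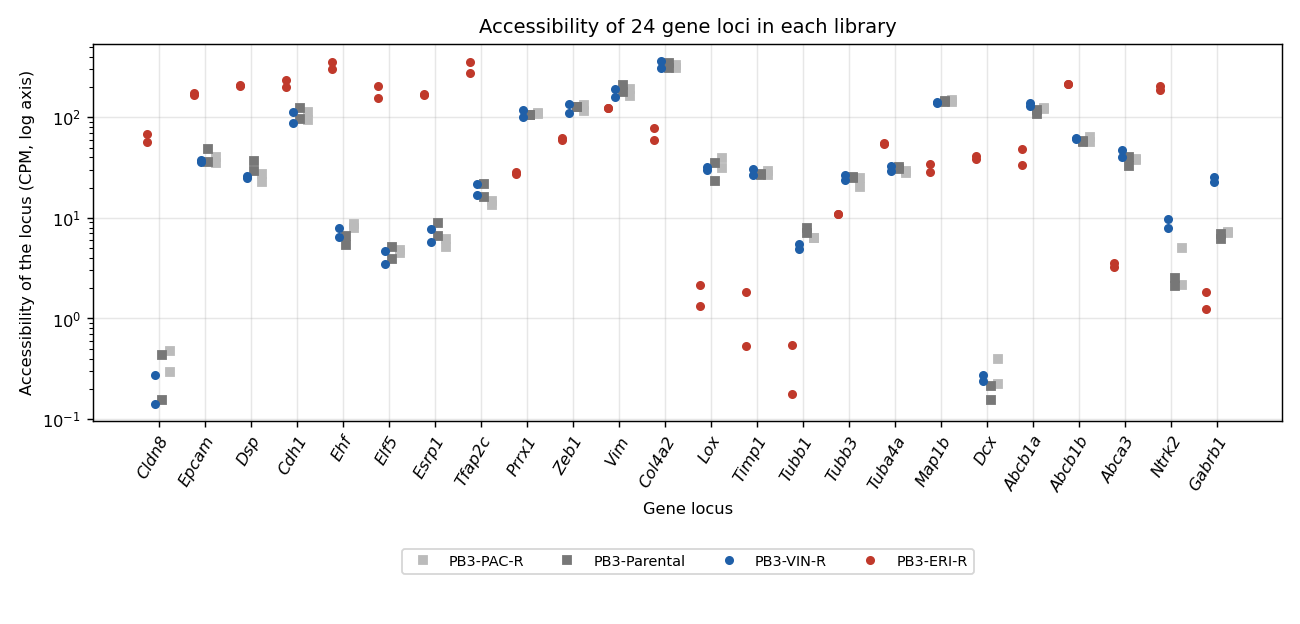
Each point is the accessibility of a gene locus in 1 library, in CPM on a log axis, for PB3-ERI-R (red), PB3-VIN-R (blue), PB3-Parental (dark grey squares) and PB3-PAC-R (light grey squares). PB3-VIN-R lies among the grey squares at most loci, while PB3-ERI-R is apart from them, above at Cldn8 and Ehf and below at Lox and Timp1.

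Mesenchymal and matrix genes were more open in PB3-VIN-R at 22 of 37 measured loci and more open in PB3-ERI-R at 5, with a median of -0.74. The shares of all loci in these directions were 30.6% and 28.4%. Col4a2 and Col4a1, the neighbouring genes of basement membrane collagen IV that share a promoter region, had 58.8 and 78.8 and 58.9 and 75.9 CPM in PB3-ERI-R against 361 and 307 and 243 and 228 in PB3-VIN-R. Their log2 fold changes were -2.28 ± 0.15 and -1.81 ± 0.13. Lox, the collagen crosslinker lysyl oxidase, had 1.34 and 2.17 CPM against 31.9 and 30.1 (log2 -4.16 ± 0.30). Timp1, an inhibitor of matrix metalloproteases, had 0.536 and 1.84 CPM against 26.6 and 30.5 (log2 -4.64 ± 0.33). Lox lies in a window with a median of -1.60, and the Timp1 window had a median of 0.32. Fn1, which encodes fibronectin, was not called (log2 0.03 ± 0.12), and Col5a2 and Postn were higher in PB3-ERI-R, at 4.06 and 1.77.

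The vimentin gene showed how a locus sum can hide its promoter. Over the Vim promoter, accessibility was 3.06 and 4.32 CPM in PB3-ERI-R and 113 and 107 in PB3-VIN-R (log2 -4.91 ± 0.20, adjusted p = 4.74e-10). Within the gene, 1.6 kb from an end, a region had 69.9 and 68.3 CPM against 9.73 and 8.03 (log2 2.96 ± 0.20), and a region 5.0 kb outside had 23.96 and 19.7 against 0.229 and 0.166 (log2 6.73 ± 0.37). The Vim locus as a whole had 124 and 122 CPM against 193 and 160.2, a difference of -0.52 ± 0.13 (adjusted p = 0.00502). That sign was not stable: with offsets for the median of each 5 Mb window it was 0.19, the window median being -0.65.

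Loci of EMT transcription factors did not share a direction, with 8 of 19 higher in PB3-ERI-R and 7 in PB3-VIN-R. Their median was 0.14, and -0.06 with the window offsets. Calls at all loci stood at 28.4% and 30.6% in these directions. Zeb1, the repressor of Cdh1, had 62.3 and 59.7 CPM against 135 and 110.0 (log2 -1.01 ± 0.12, adjusted p = 3.55e-05), with 3 of its 7 regions higher in PB3-VIN-R and 1 in PB3-ERI-R. The region at the Zeb1 gene end missed the threshold (log2 -0.56 ± 0.24, adjusted p = 0.052). Prrx1, a homeobox factor of mesenchyme, had 27.5 and 28.5 CPM against 118 and 100.3 (log2 -1.97 ± 0.11), and Fosl1, an AP-1 subunit, had 31.6 and 40.2 against 175 and 145 (log2 -2.16 ± 0.16). Sox9 went the other way, with 647 and 542 CPM against 137 and 118 (log2 2.22 ± 0.14) in a window with a median of 1.14, as did Foxc1 (log2 1.14 ± 0.11). Foxc1 lost its call when only regions within 1 kb of the gene ends were summed (0.12). Snai1 and Snai2 were not called as loci, at 0.08 ± 0.12 and 0.19 ± 0.13. At promoters, 4 of 8 genes of this list were higher in PB3-ERI-R and 2 in PB3-VIN-R, and 2 and 2 without a scaling factor. The promoters of Snai1 and Twist1 were called higher in PB3-ERI-R (log2 0.76 ± 0.15 and 0.51 ± 0.14). Those of Twist2 and Zeb2 were called lower (log2 -1.86 ± 0.20 and -0.51 ± 0.16).

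**Figure D3:**
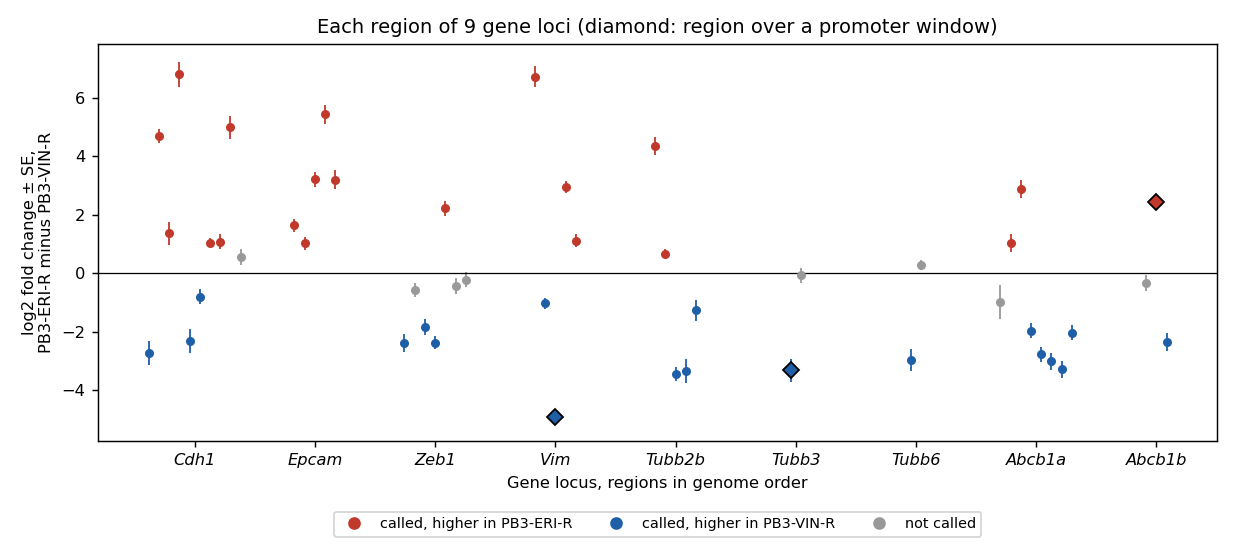
Each point is a region of the named locus, in genome order, with its log2 fold change ± SE, PB3-ERI-R minus PB3-VIN-R, and diamonds mark regions over a promoter window. At Cdh1, Vim, Tubb2b and Abcb1a, regions of 1 locus lie on both sides of 0, and the Vim promoter is the lowest point of the plot.

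Tubulin genes encode the target of both drugs, and class III beta-tubulin (Tubb3) has been studied as a factor in response to microtubule drugs. Of 15 measured tubulin loci, 3 were higher in PB3-ERI-R and 5 in PB3-VIN-R, with a median of -0.17, against 28.4% and 30.6% of all loci. At the promoters of 12 tubulin genes the lean was the other way, with 6 higher in PB3-ERI-R and 1 in PB3-VIN-R. Of all 9104 genes with a promoter region 4060 and 623 were. Without a scaling factor the tubulin promoters stood at 3 and 3. At the Tubb3 promoter, accessibility was 0.557 and 1.66 CPM in PB3-ERI-R and 9.27 and 12.4 in PB3-VIN-R (log2 -3.32 ± 0.39, adjusted p = 2.34e-06), with 10.1 in PB3-Parental. The second Tubb3 region, 0.2 kb from the gene, did not pass the test (-0.07 ± 0.25), and the locus had 10.99 and 10.9 CPM against 26.7 and 23.8 (log2 -1.20 ± 0.18). Tubb1, the platelet beta-tubulin, had 0.179 and 0.542 CPM against 5.54 and 4.87 (log2 -3.88 ± 0.42), a low level in both lines. Tuba4a, an alpha-tubulin, had 55.2 and 54.0 CPM against 29.5 and 32.6 (log2 0.81 ± 0.12).

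Tubb2b and Tubb6 were not called as loci, at -0.17 ± 0.10 (adjusted p = 0.168) and -0.13 ± 0.16 (adjusted p = 0.511). The Tubb2b value joins opposite parts: the region at the gene end had 2.23 and 1.77 CPM in PB3-ERI-R and 20.6 and 23.3 in PB3-VIN-R (log2 -3.44 ± 0.25). A region 17.0 kb away had 18.8 and 17.4 CPM against 1.03 and 0.707 (log2 4.36 ± 0.31). Summed within 10 kb of the gene, Tubb2b was at -3.68. At Tubb6 the value crossed 0 with its alternatives, at 0.04 without PB3-ERI-R replicate 2 and 0.01 within 10 kb. Tubd1, delta-tubulin, was at -1.23 ± 0.22 over its 3 regions but at 2.73 when regions within 1 kb of the gene ends were used, and the region over its promoter, which is joined to a neighbouring gene, was at 0.31 ± 0.14 and not called. The promoters of the widely expressed Tuba1b and Tubb4b differed by 0.02 ± 0.17 and 0.18 ± 0.12, neither called, although the Tuba1b locus over its 5 regions was at -0.57 ± 0.11.

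Loci of microtubule-associated proteins and tubulin chaperones were divided, with 14 of 45 higher in each line and a median of -0.04. With the window offsets the counts were 11 and 21. Without them, 28.4% of all loci were called higher in PB3-ERI-R and 30.6% in PB3-VIN-R. Dcx, the neuronal microtubule binder doublecortin, had 40.9 and 38.8 CPM in PB3-ERI-R and 0.236 and 0.276 in PB3-VIN-R (log2 7.23 ± 0.31, adjusted p = 4.67e-08). Kif18a, a kinesin that limits chromosome movement in mitosis, had 66.0 and 61.4 against 0.426 and 0.552 (log2 7.0 ± 0.31), but this locus is 1 region 8.0 kb from the gene. Mapre3, an end-binding protein at growing microtubule tips, had 253 and 258 CPM against 47.4 and 41.6 (log2 2.52 ± 0.12) in a window with a median of 1.61. Map1b, a microtubule stabilizer of neurons, was lower in PB3-ERI-R at all 7 regions, with 28.7 and 34.3 CPM against 138 and 140.2 (log2 -2.15 ± 0.11).

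Drug efflux and detoxification loci were more often higher in PB3-VIN-R, 17 of 31 against 6, with a median of -0.36, where 30.6% and 28.4% of all loci were called in these directions. Within 1 kb of gene ends the counts were 8 and 5 of 20, with a median of -0.03. At the promoters of 18 of these genes the direction was not the same, with 4 higher in PB3-VIN-R and 8 in PB3-ERI-R, and it followed the scaling, at 8 and 5 without a scaling factor. The mouse has a pair of neighbouring genes for P-glycoprotein, the pump that exports taxanes and vinca alkaloids. Their locus sums moved in opposite directions, but neither locus was uniform. Of 8 Abcb1a regions, 2 were higher in PB3-ERI-R and 5 in PB3-VIN-R, and of 3 Abcb1b regions 1 was in each. Abcb1a had 33.5 and 48.3 CPM in PB3-ERI-R and 139 and 130 in PB3-VIN-R (log2 -1.72 ± 0.15, adjusted p = 3.08e-06). Abcb1b had 216 and 214 CPM against 61.5 and 60.6 (log2 1.82 ± 0.10, adjusted p = 1.23e-07). The Abcb1b promoter region had 219 and 214 CPM against 37.8 and 42.7 (log2 2.43 ± 0.13). Both lie in a 5 Mb window of chromosome 5 with a median of 2.02, and relative to it Abcb1b was at -0.14 and no longer higher. PB3-VIN-R did not differ detectably from PB3-Parental at Abcb1a (log2 0.25 ± 0.14, adjusted p = 0.907). The phospholipid pump gene Abcb4, in the same window, had 104 and 117 CPM against 10.2 and 11.2 (log2 3.37 ± 0.19).

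Abca3, a lipid transporter, had 3.22 and 3.58 CPM in PB3-ERI-R against 47.2 and 40.5 in PB3-VIN-R (log2 -3.69 ± 0.19). The Abca3 promoter region, joined to the neighbouring Abca17 and so not in that sum, was open in both lines, with 30.6 and 32.7 CPM against 33.0 and 42.6 (log2 -0.26 ± 0.18, not called). Nqo1, a quinone reductase, had 79.3 and 67.7 CPM against 14.3 and 13.1 (log2 2.42 ± 0.15). The multidrug pump genes Abcg2 and Abcc1 were lower in PB3-ERI-R as loci, at -1.03 ± 0.14 and -1.18 ± 0.13. The Abcg2 promoter region differed more, with 0.557 and 0.997 CPM against 12.5 and 20.4 (log2 -4.42 ± 0.39).

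Among G1 regulators, 6 of 23 loci were higher in PB3-ERI-R and 7 in PB3-VIN-R (median 0.03), against 28.4% and 30.6% of all loci. Cdkn2b and Cdkn2a, which encode the inhibitors p15 and p16 together with ARF, had 77.3 and 73.9 and 37.9 and 42.5 CPM in PB3-ERI-R. No count fell on either locus in PB3-VIN-R, PB3-Parental or PB3-PAC-R. Mtap had 121 and 111 CPM against 7.24 and 6.44 (log2 4.08 ± 0.19), and the cyclin gene Ccnd2 had 11.6 and 15.7 against 37.3 and 44.4 (log2 -1.58 ± 0.17).

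Mitosis and spindle checkpoint loci were called higher in PB3-ERI-R at 12 of 30 and in PB3-VIN-R at 5, with a median of 0.09 that was -0.07 within 1 kb of gene ends. The 3 with the smallest p, Cenpa, Mad1l1 and Birc5 (log2 1.88, 1.9 and 1.41), lie in windows with medians of 1.61, 1.98 and 1.38. With the window offsets they were at 0.25, -0.04 and 0.05 and not called higher. Bub1b, a checkpoint kinase, had 74.6 and 68.9 CPM against 32.6 and 31.8 (log2 1.16 ± 0.12), but was not called within 1 kb of gene ends (0.33). Of apoptosis regulators, 7 of 26 were higher in PB3-ERI-R and 10 in PB3-VIN-R, with a median of -0.18. For both lists the shares of all loci were 28.4% and 30.6%. Bik, a BH3-only gene, had 73.0 and 64.7 CPM against 6.48 and 5.56 (log2 3.51 ± 0.20), and Bcl2l11, which encodes BIM, was at 0.81 ± 0.09. Toward PB3-VIN-R were Pmaip1, which encodes NOXA (-1.50 ± 0.14, not called at -0.28 within 1 kb of gene ends), and Casp9 (-1.15 ± 0.12).

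SWI/SNF loci, which encode a nucleosome remodeller, were higher in each line at 7 of 26, with a median of -0.06. Over all loci 28.4% were higher in PB3-ERI-R and 30.6% in PB3-VIN-R. Arid2 had 6.35 and 5.74 CPM in PB3-ERI-R and 55.2 and 53.4 in PB3-VIN-R (log2 -3.16 ± 0.15), while Bcl11b had 55.5 and 43.8 against 1.61 and 1.70 (log2 4.90 ± 0.30). Dpf3 was at 1.22 ± 0.11, but not called within 1 kb of gene ends (0.15), and Smarcd3 at 1.41 ± 0.13, which became -0.07 with window offsets. Of 25 DNA methylation and Polycomb loci, 8 were higher in PB3-ERI-R and 3 in PB3-VIN-R (median 0.02), and 6 and 8 with window offsets. The Polycomb genes Cbx8 and Cbx2 were at 1.70 and 1.26 in a window with a median of 1.38. With window offsets Cbx2 was at -0.10 and not called higher. Kdm1a, a histone demethylase, was at -1.38 ± 0.14.

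TGF-beta and SMAD loci were higher in PB3-ERI-R at 12 of 32 and in PB3-VIN-R at 7 (median 0.18), and 10 and 10 with window offsets. In both directions together 59.4% were called, against 59.0% of all loci. The ligand gene Tgfb2 had 406 and 389.6 CPM against 159.6 and 137 (log2 1.43 ± 0.11). Grem1, a BMP antagonist, had 1.88 and 1.52 against 32.6 and 46.5 (log2 -4.52 ± 0.41), and the repressor gene Ski was at -1.47 ± 0.13. Smurf1, a ubiquitin ligase for SMADs, was at 1.80 ± 0.11 in a window with a median of 1.98 and at -0.13 with window offsets.

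Of 40 receptor tyrosine kinase and ligand loci, 15 were higher in PB3-ERI-R and 13 in PB3-VIN-R (median 0.17). Fgfr2, a receptor for fibroblast growth factors, had 118 and 106 CPM against 6.76 and 5.24 (log2 4.22 ± 0.21). The ligand genes Pdgfa and Igf2 were at 2.27 ± 0.11 and 5.15 ± 0.30, Pdgfa in a window with a median of 1.55. Wnt and Notch loci were higher in PB3-ERI-R at 15 of 36 and in PB3-VIN-R at 7 (median 0.27). All loci stood at 28.4% and 30.6%, beside this list and the receptor list. Wnt5a, a non-canonical Wnt ligand, had 0.268 and 1.30 CPM against 16.9 and 13.4 (log2 -4.33 ± 0.43), and the Wnt inhibitor gene Dkk2 had 8.31 and 8.45 against 68.0 and 49.4 (log2 -2.81 ± 0.17). Tcf7l1 and Lgr4 were at 1.79 ± 0.10 and 1.33 ± 0.11, Lgr4 not called at 0.25 within 1 kb of gene ends.

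Hippo and TEAD loci were split 7 to 6 of 19 (median 0.04), where all loci were split 28.4% to 30.6%. The kinase gene Stk4 (1.82 ± 0.14), Amotl2 (0.86 ± 0.11) and Ankrd1 (-0.79 ± 0.13) changed sign within 1 kb of gene ends, at -0.07, -0.01 and 0.02, and Ajuba was at -0.89 ± 0.10. AP-1 family loci were split 5 to 5 of 17 (median 0.09). Bach1, a heme-regulated repressor, was at -1.16 ± 0.10, and the small MAF genes Mafg and Mafk were at 1.18 ± 0.11 and 1.36 ± 0.10. Mafk lies in a window with a median of 1.55 and was at -0.18 with window offsets. Of 18 interferon response loci, 6 were higher in PB3-ERI-R and 3 in PB3-VIN-R (median 0.08). The RNA sensor gene Ifih1 had 48.6 and 55.2 CPM against 25.7 and 27.4 (log2 0.97 ± 0.13), and Oas1a, an antiviral synthetase, was at 2.67 ± 0.52. Oas3 (-1.95 ± 0.47) was not called without PB3-ERI-R replicate 1, and Rsad2 (1.43 ± 0.36) was not called without PB3-ERI-R replicate 2.

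**Figure D4:**
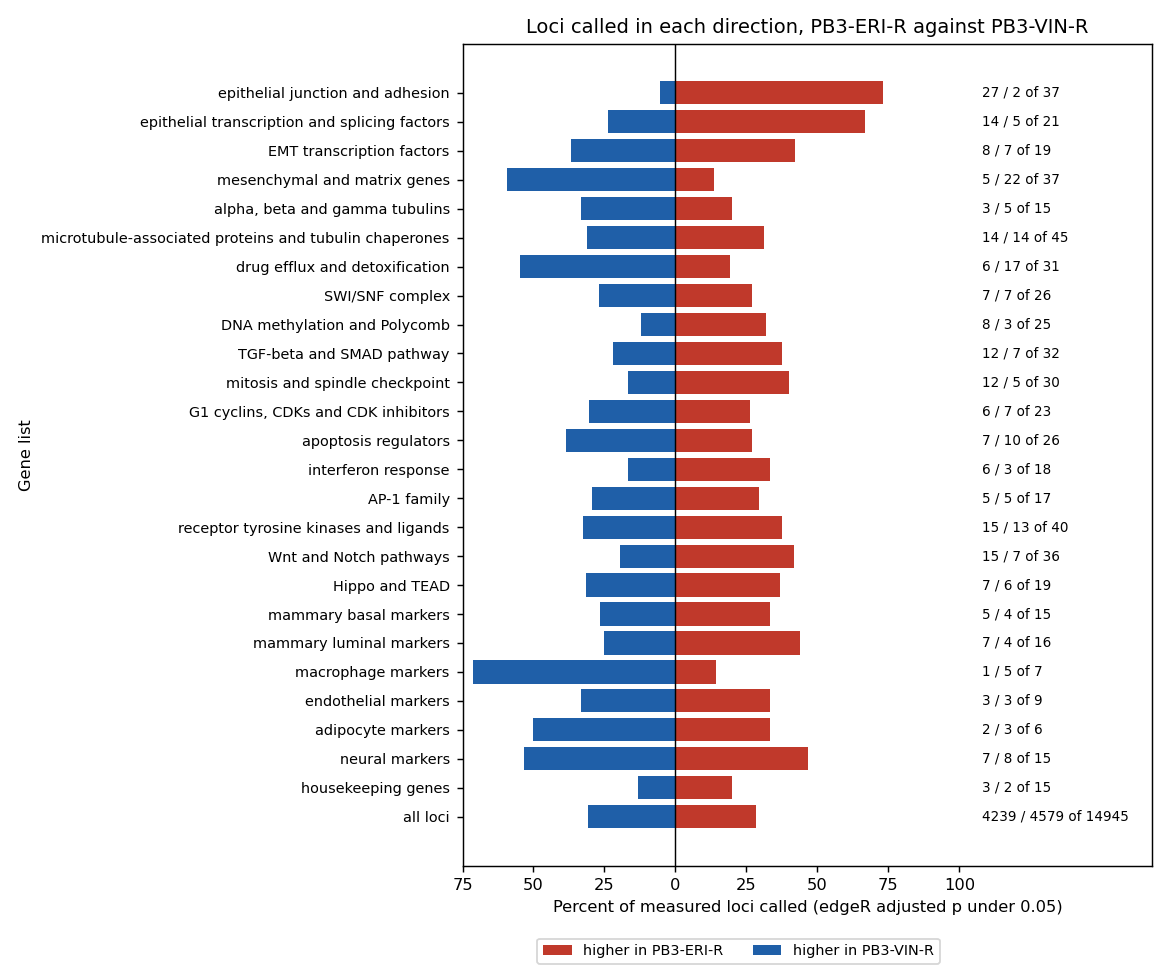
For each gene list, bars give the percent of measured loci called higher in PB3-ERI-R (red, to the right) and higher in PB3-VIN-R (blue, to the left), with the counts beside them. The epithelial lists extend to the right and the mesenchymal, drug efflux and macrophage lists to the left, against 28.4% and 30.6% of all loci in the bottom bar.

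Several list medians near 0 changed sign with the setting. With window offsets those of the AP-1 list became -0.22, Polycomb -0.07, EMT factors -0.06, G1 -0.04, apoptosis 0.01 and endothelial 0.19. Without a scaling factor those of the Polycomb, G1, Hippo, interferon and luminal lists fell below 0. The epithelial and mesenchymal lists kept theirs under both and within 1 kb of gene ends, at 0.97 to 2.84 for junction genes and -1.03 to -0.82 for mesenchymal genes. Of 65 called loci named here that have a promoter region, 52 had one called in the direction of the locus. The 13 that did not were Abca3, Ajuba, Ankrd1, Bach1, Bcl2l11, Bub1b, Eef1a1, Gata3, Golt1b, Itgb1, Stk4, Tbp and Tubd1, with promoter differences of -0.26 to 0.37. Pparg, lower in PB3-ERI-R as a locus, had 1 promoter region called with it and 1 called the other way (log2 1.02 ± 0.32). Most named loci were picked for a large change or a small p, and the matching share over all called loci was not computed. Of all 9104 genes with a promoter region, 4060 had one called higher in PB3-ERI-R and 623 one called higher in PB3-VIN-R.

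Markers of the mammary layers and of other cell types moved in both directions. Loci in general did so too, at 28.4% toward PB3-ERI-R and 30.6% toward PB3-VIN-R. Mammary luminal markers were split 7 to 4 of 16 (median 0.07), and their summed accessibility was 1304 and 1097 CPM in PB3-ERI-R and 999.4 and 820.9 in PB3-VIN-R. Prlr and Elf5 are described above, and Kit, a receptor of luminal progenitors, had 17.1 and 14.8 CPM against 0.0946 and 0.230 (log2 6.54 ± 0.42). Gata3 was lower in PB3-ERI-R (-1.02 ± 0.10, -0.14 and not called with window offsets). Mammary basal markers were split 5 to 4 of 15 (median 0.19), with sums of 1262 and 1077 CPM against 1237 and 1101. Krt14 and Krt5, keratins of basal cells, had 142 and 117 and 39.1 and 30.1 CPM in PB3-ERI-R against 13.4 and 9.47 and 6.48 and 5.98 in PB3-VIN-R (log2 3.50 ± 0.21 and 2.48 ± 0.23). Vcam1 and Itgb1 were lower, at -4.12 ± 0.35 and -1.38 ± 0.10, the latter not called within 1 kb of gene ends. Of the receptors in the label, the Esr1 locus was open in both lines, with 52.4 and 46.0 CPM against 88.1 and 76.2, and Erbb2 had 75.3 and 64.9 against 41.7 and 40.4.

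Macrophage markers were higher in PB3-VIN-R at 5 of 7 loci and in PB3-ERI-R at 1 (median -2.51), against 30.6% and 28.4% of all loci. Within 1 kb of gene ends only 3 were measured, 1 higher in PB3-VIN-R and 0 in PB3-ERI-R, with a median of -0.1. Sums were 520.8 and 447.7 CPM in PB3-VIN-R, 370.7 and 337.7 in PB3-ERI-R and 424.9 to 466.7 in PB3-Parental. Mrc1, the mannose receptor, had 4.11 and 5.53 CPM in PB3-ERI-R against 56.4 and 45.1 in PB3-VIN-R (log2 -3.41 ± 0.19). Csf1r, Ptprc and Itgam were at -2.51, -2.96 and -2.74, and no measured marker was at 0. Endothelial markers were split 3 to 3 of 9 (median -0.08), with sums of 927.4 and 826.5 CPM in PB3-ERI-R and 418.7 and 384.8 in PB3-VIN-R. Flt1, with 710.2 and 601 CPM against 134 and 128, carried that sum in a window with a median of 1.9. Kdr and Tek were lower (-3.12 ± 0.22 and -1.80 ± 0.20, Tek at 1.03 with window offsets) and Erg higher (2.26 ± 0.29).

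Adipocyte markers were split 2 to 3 of 6 (median -0.29), led by Pparg (-2.33 ± 0.12), with Adipoq at -1.57 ± 0.21, Cebpa at 1.40 ± 0.16 and Lep at 0.87 ± 0.14. Neural markers were all called, 7 of 15 higher in PB3-ERI-R and 8 in PB3-VIN-R (median -0.63), where 59.0% of all loci were called. Rbfox3, a neuronal splicing factor, had 174 and 163 CPM against 12.3 and 10.2 (log2 3.91 ± 0.14), and Sox2 had 19.8 and 19.3 against 75.3 and 77.2 (log2 -1.97 ± 0.14). Of the 6 lymphocyte markers 5 had no region. The part of other cell types in these differences was not tested. Housekeeping loci were called at 5 of 15, 3 higher in PB3-ERI-R and 2 in PB3-VIN-R (median -0.07), and 0 and 6 with window offsets. Pgk1 and Actb were at 0.73 ± 0.11 and 0.59 ± 0.12, which became -0.39 and -1.34 in windows with medians of 1.16 and 1.98, and Tbp and Eef1a1 were at -0.86 ± 0.15 and 0.23 ± 0.09.

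Whole stretches of chromosomes differed between the lines. Of 503 windows of 5 Mb with at least 20 tested regions, 82 (16.3%) had a median beyond 1 on the log2 scale, 27 toward PB3-ERI-R and 55 toward PB3-VIN-R. No window did so between PB3-VIN-R and PB3-Parental, where medians ran from -0.51 to 0.71. Apart from the Y with its 3 regions, chromosome 5 and the X had the largest shares of regions higher in PB3-ERI-R, 52.6% and 51.2%. On chromosome 5, the windows holding Abcb1b, Cenpa, Actb and Flt1 had medians of 2.02, 1.61, 1.98 and 1.9. Gains or losses of DNA and a shared change of chromatin cannot be told apart from counts. With offsets that remove each window's median, 39897 regions and 8740 loci were called.

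**Figure D5:**
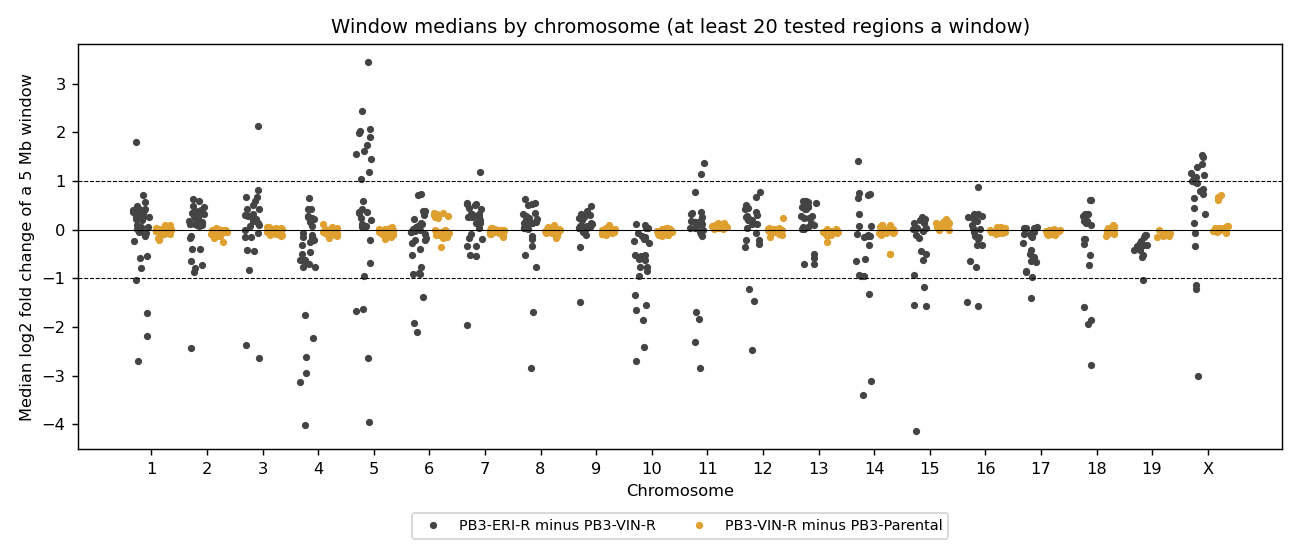
Each point is the median log2 fold change of the regions in a 5 Mb window, by chromosome, for PB3-ERI-R minus PB3-VIN-R (dark) and PB3-VIN-R minus PB3-Parental (orange), with dashed lines at -1 and 1. Of the dark points 82 of 503 lie beyond the lines, with a group above 1 on chromosome 5, and no orange point does.

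Far fewer features were called between PB3-VIN-R and the parental line. At an edgeR adjusted p under 0.05, 389 of 57415 regions differed from PB3-Parental (0.678%) and 98 of 14945 loci (0.656%). Of the loci, 57 were higher in PB3-VIN-R (0.381%) and 41 in PB3-Parental (0.274%). With the replicate number as a block, an alternative added after seeing the data, 2717 regions and 475 loci were called. Among those also called between the resistant lines, Ntrk2, the BDNF receptor TrkB, had 7.95 and 9.70 CPM in PB3-VIN-R, 2.51 and 2.09 in PB3-Parental and 206 and 187 in PB3-ERI-R. Its PB3-VIN-R difference from PB3-Parental was 1.93 ± 0.30 (adjusted p = 0.0224). Capsl had 2.41 and 2.99 CPM in PB3-VIN-R, 0.716 and 0.465 in PB3-Parental and 57.7 and 59.1 in PB3-ERI-R. At both loci PB3-VIN-R lay above PB3-Parental but far below PB3-ERI-R.

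Moved away from PB3-ERI-R were Atf7ip2, Tlx3, Ppfibp2 and Mgmt, each lower in PB3-VIN-R than in PB3-Parental by log2 -2.31 to -1.45. The shift was not particular to PB3-VIN-R at most of them. PB3-VIN-R differed from PB3-PAC-R there by log2 0.01, 0.28, -1.06 and 0.01, none called. Mgmt, which repairs alkylated guanine, had 5.16 and 4.74 CPM in PB3-VIN-R, 10.7 and 16.3 in PB3-Parental and 90.4 and 73.3 in PB3-ERI-R. Higher in PB3-VIN-R than in both PB3-Parental and PB3-ERI-R were Elmod1, Golt1b, Gabrb1, Ct55 and Arhgap36, by log2 1.19 to 2.09 over PB3-Parental. Over PB3-PAC-R they were higher by log2 0.45, 0.34, 1.75, 1.03 and 0.81, and only Gabrb1 was called. The 5 Mb windows of Ct55, Arhgap36 and Golt1b had medians of 0.67, 0.67 and 0.33 in that contrast, and those of Elmod1 and Gabrb1 -0.09 and 0.01. Ct55, a cancer-testis gene on the X, had 34.6 and 29.7 CPM in PB3-VIN-R, 8.95 and 6.05 in PB3-Parental and 1.97 and 2.49 in PB3-ERI-R. Cnr1, a cannabinoid receptor gene, was lower in PB3-VIN-R than in PB3-Parental (log2 -1.11 ± 0.20, adjusted p = 0.0384) and lower still in PB3-ERI-R. Its level was 16.1 and 14.7 CPM in PB3-VIN-R and 10.2 and 12.2 in PB3-PAC-R.

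Between PB3-VIN-R and PB3-PAC-R, made with a destabilizer and a stabilizer of microtubules, 5 of all regions were called (0.00871%) and 5 of all loci (0.0335%), namely F8, Gabrb1, Hs6st2, Kcnmb2 and Zfp882. With the replicate block the counts were 226 and 60. Gabrb1, a GABA receptor subunit gene, had 22.9 and 25.6 CPM in PB3-VIN-R, 7.28 and 7.09 in PB3-PAC-R, 6.95 and 6.13 in PB3-Parental and 1.25 and 1.84 in PB3-ERI-R. Kcnmb2, a potassium channel subunit gene, had 79.6 and 77.7 CPM in PB3-VIN-R, 39.4 and 34.0 in PB3-PAC-R and 19.9 and 23.1 in PB3-ERI-R. Zfp882 had 5.16 and 3.95 CPM in PB3-VIN-R, 15.0 and 14.3 in PB3-PAC-R and 21.9 and 25.4 in PB3-ERI-R, and was lower in PB3-VIN-R than in all other lines. These contrasts share their PB3-VIN-R libraries with the comparison of the resistant lines.

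The deposited peak lists are 1 per line and by their names passed IDR, a filter for reproducibility between replicates, but their overlap has no replicate spread. Of 30778 PB3-ERI-R peaks, 20580 overlapped a PB3-VIN-R peak by at least 1 base (66.87%). Of 45415 PB3-VIN-R peaks, 19985 overlapped a PB3-ERI-R peak (44.01%). The lists cover 16.16 and 23.44 Mb, and the PB3-VIN-R libraries were the deeper ones.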

How the data were processed

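ATAC-seq libraries of 4 PB3 lines, 2 per line, were grouped by the lines named in the labels. Per the submitters' processing notes, which give builds mm10 and GRCm38 and no settings, the tools included Bowtie2 2.2.6, MACS2 2.1.1 and featureCounts, besides cutadapt 1.9.1, bcl2fastq 2.20.0.422, deepTools and Picard. The authors deposited raw read counts per consensus region, the other values there being region starts and ends. They also deposited a peak list per line with a score, a fold enrichment and a −log10 q-value for each peak.

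Counts were fitted as deposited with edgeR 4.0.16 (R 4.3.3): quasi-likelihood F test, all 8 libraries, 1 term per line, TMM factors and the default filter on low counts. Calls used a Benjamini-Hochberg adjusted p under 0.05 over all regions or all loci. The spread had 4 residual degrees of freedom. Regions were joined to protein-coding genes of RefSeq GRCm38.p6 within 50 kb, and counts were summed per gene. Peak overlaps used bedtools 2.31.1. The replicate numbers were not used as a block, since no label ties them across lines.

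Named features followed a rule: the 8 regions (average log2 CPM of at least 2) and 10 loci (at least 4, with at least 3 regions) of largest change in each direction, 6 loci in each direction also changed between PB3-VIN-R and PB3-Parental by at least 1, the 4 smallest adjusted p of each list, and 11 genes whatever their values. Other genes named were chosen after their values were seen. Members, lists and tests were chosen with earlier results of these data known. On simulated counts for this comparison, 64% of 50 regions and 98% of 50 loci changed by 2-fold were recovered, of 57414 regions and 14945 loci tested. The simulation changed few features, none of low level, and left the rest equal between lines, with the same spread throughout. In the data most regions differed, so these rates may not carry over. Alternatives covered DESeq2 1.42.0, other scalings, filters, gene distances, window offsets, thinning and leaving out each library. Promoter counts and motif shares without a scaling factor were added after seeing the data.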

Additional observations from a re-analysis of the deposited data

How the results depend on the processing

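Of 2200 checks of 133 named loci, 2132 kept direction and side of the threshold, 46 lost the call, 4 gained one and 18 changed sign. With window offsets the signs that changed were those of Vim (0.19), Abcb1b (-0.14), Smarcd3 (-0.07), Cbx2 (-0.10), Smurf1 (-0.13), Mad1l1 (-0.04), Mafk (-0.18), Tek (1.03), Pgk1 (-0.39), Actb (-1.34) and Eef1a1 (-0.05). Within 1 kb of gene ends they were those of Tubd1 (2.73), Stk4 (-0.07), Amotl2 (-0.01), Ankrd1 (0.02) and Eef1a1 (-0.14). Tubb6 ran from -0.32 without PB3-ERI-R replicate 1 to 0.04 without PB3-ERI-R replicate 2, and was at 0.01 within 10 kb. The cause was not tested. All 239 checks of the 16 named regions kept both.

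Leaving out a library in turn gave 38283 to 40576 called regions (17822 to 19622 higher in PB3-ERI-R, 20275 to 20954 in PB3-VIN-R) and 7573 to 8159 loci (3601 to 3918 and 3972 to 4241). Testing against a log2 threshold of 1 gave 12245 regions higher in PB3-ERI-R and 3393 loci (1601 and 1792). Within 1 kb of gene ends, with fewer loci, 4409 were called (2172 and 2237). Without a scaling factor the split of regions was 15169 to 25336. Windows of 10 Mb beyond 1 numbered 35. A reciprocal overlap of 50% gave 58.93% and 39.94% shared peaks, and peaks with a −log10 q of at least 229.6 gave 71.79% and 33.51%. With the replicate number as a block, 45354 regions and 10308 loci were called. Same-numbered libraries deviated together at a correlation of 0.131 for these lines, 0.396 for PB3-VIN-R and PB3-Parental and 0.446 for PB3-VIN-R and PB3-PAC-R, but at 0.073 for PB3-ERI-R and PB3-Parental. With 2 replicates and no label on pairing they share only a number. Depth limits low features: 3 counts were 0.224 and 0.285 CPM in PB3-ERI-R and 0.125 and 0.129 in PB3-VIN-R.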
